A study of Mus musculus with 10 samples.

Results

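The genes described here are the extramitochondrial HMG-CoA lyase gene *Hmgcll1* and 4 genes of ketone body enzymes, *Bdh1*, *Bdh2*, *Oxct1* and *Acat1*. They were picked by symbol, with their expression in these uteri already known, and are 5 of the 45706 gene identifiers counted and 5 of the 25146 genes tested, whose mean count per uterus reached at least 1. Whole uteri of adult female mice were sequenced on gestation day 3.5 (GD 3.5), just before implantation. The 5 control mice carried floxed *Arid1a* on both chromosomes and no Cre (*Arid1a f/f*), and the other 5 mice carried the same floxed alleles with 1 copy of *Ltf iCre*, which expresses Cre recombinase from the lactoferrin locus (*Ltf iCre/+ Arid1a f/f*, called knockout here). All mice had a mixed background of C57BL/6 with 129S6/SvEvTac, 129P2/OlaHsd and 129S1/SvImJ, and littermates were used where possible. This Cre deletes *Arid1a*, which codes for a subunit of the SWI/SNF chromatin remodeling complex, in the endometrial epithelium of mature females, and the lactoferrin gene is also active in myeloid cells. The comparison asks which transcripts of the uterus differ once epithelial ARID1A is lost.

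Ketone bodies are small fuels that the liver makes from fatty acids during fasting and that most other tissues burn. In liver mitochondria HMG-CoA is made from acetoacetyl-CoA and acetyl-CoA and then split into acetoacetate and acetyl-CoA, and BDH1 reduces acetoacetate to beta-hydroxybutyrate. Tissues that burn ketone bodies run the last step backwards with BDH1, activate acetoacetate with OXCT1 and split the product with the thiolase ACAT1. HMGCLL1 carries out the lyase reaction outside the mitochondria, and BDH2 is a cytosolic dehydrogenase that also acts on hydroxybutyrate. The breakdown of leucine also leads to HMG-CoA and that of isoleucine to ACAT1, while cytosolic HMG-CoA is the starting point of cholesterol synthesis.

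Of the 5 genes, *Hmgcll1* alone passed the threshold between the genotypes (adjusted p under 0.05, as did 9.70% of all tested genes), and it is shown with the DNA before its start beside that of *Oxct1*, the member of highest level. *Hmgcll1* (ENSMUSG00000007908) occupies chr9:76014855-76136350 on the plus strand of GRCm38. *Oxct1* (ENSMUSG00000022186) occupies chr15:4026383-4155344 on the plus strand. The sequences below are from RefSeq (GRCm38.p6, plus strand) and end at the base before the annotated gene start, at chr9:76014727-76014854 for *Hmgcll1* and at chr15:4026178-4026382 for *Oxct1*. Capitals mark a match to the AP-1 motif TGANTCA, from 76014791 to 76014797 on chromosome 9.
Hmgcll1: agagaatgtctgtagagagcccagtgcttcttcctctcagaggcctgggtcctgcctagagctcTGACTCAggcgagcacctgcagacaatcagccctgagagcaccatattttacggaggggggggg
Oxct1: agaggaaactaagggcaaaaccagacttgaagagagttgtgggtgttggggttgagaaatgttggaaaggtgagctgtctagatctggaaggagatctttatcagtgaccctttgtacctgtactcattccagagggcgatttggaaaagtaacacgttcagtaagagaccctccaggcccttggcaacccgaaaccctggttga
RefSeq windows of 250 bases were matched for 4 of the 5 members, with 2 windows for *Bdh1*, and *Acat1* was not matched. The windows of *Hmgcll1* and *Oxct1* run past the annotated gene start, to 76014976 and 4026427. The sequences above are thus only the first part of what was searched. On both strands of each window the letters of AP-1 (TGANTCA), forkhead (TGTTTAC) and the GC box (GGGCGG) were searched, as were the palindromic estrogen response element and the PPAR direct repeat. The AP-1 match of *Hmgcll1* was the only match in the windows of *Hmgcll1*, *Bdh1*, *Bdh2* and *Oxct1*. Of 32851 mouse windows of the same length, 6.75% held the AP-1 letters, 3.17% the forkhead letters, 0.0639% the estrogen response element, 0.0335% the PPAR repeat and 32.7% the GC box. A match of letters is a description of the sequence and was not tested for binding.

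Before the members, the libraries are described. The gene counts of a uterus summed to 59296537 at the lowest and 72702411 at the highest. *Arid1a* itself stood at 213 ± 22.9 CPM (SD, n = 5) in controls against 185 ± 15.9 CPM (SD, n = 5) in knockout uteri (log2 fold change -0.20, standard error, SE, 0.09, adjusted p = 0.201), and these counts cover the whole gene rather than the floxed exons alone. Knockout replicates 1 and 5 lay farthest from the controls in earlier results of these data, so values that rest on them are given with and without them. Of 12 epithelial markers 7 were called higher in knockout uteri, against 5.19% of all tested genes. The summed level of the 12 was 996 to 1331 CPM in controls and 1390 to 2876 CPM in knockout uteri. All 6 endothelial markers were called lower, against 4.51% of all tested genes. The summed endothelial level was 746 to 1041 CPM in controls and 340 to 510 CPM in knockout uteri. Neutrophil markers summed to between 6.04 and 23.1 CPM in controls, to 882 CPM in knockout replicate 5 and to between 12.3 and 23.1 CPM in the other 4. In RNA of a whole uterus, a change in the number of cells of a type and a change in RNA per cell cannot be told apart.

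Levels of different genes were compared as CPM per kb of exon, where CPM are read counts scaled to a common library size by TMM normalization. In control uteri *Oxct1* was the highest member, with a median of 79.2 CPM per kb (64.9 to 81.9 over the 5 uteri). *Acat1* followed at a median of 38.9 CPM per kb (34.7 to 40.2). These are the steps that activate acetoacetate and split acetoacetyl-CoA, and their levels lay far above those of the dehydrogenases and of *Hmgcll1*. *Bdh2* had a median of 3.59 CPM per kb (2.93 to 5.11), *Bdh1* of 2.06 CPM per kb (1.12 to 2.91) and *Hmgcll1* of 0.304 CPM per kb (0.288 to 0.377). Neighbours in this order did not overlap between any control uteri, although the highest *Bdh1* value (2.91) and the lowest *Bdh2* value (2.93) were close.
In knockout uteri *Oxct1* (55.4 to 94.9 CPM per kb) and *Acat1* (22.7 to 41.5) again had the highest levels. *Hmgcll1* reached 1.98 to 6.65 CPM per kb there, a range that overlapped that of *Bdh2* (1.30 to 3.62) and that of *Bdh1* (1.08 to 2.36). For comparison, the cytosolic HMG-CoA synthase gene *Hmgcs1* stood at a median of 15.2 CPM per kb in controls and 23.1 CPM per kb in knockout uteri, and the cytosolic thiolase gene *Acat2* at 7.04 and 9.31 CPM per kb. The *Hmgcll1* median lay below both of them in each genotype.

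**Figure D1:**
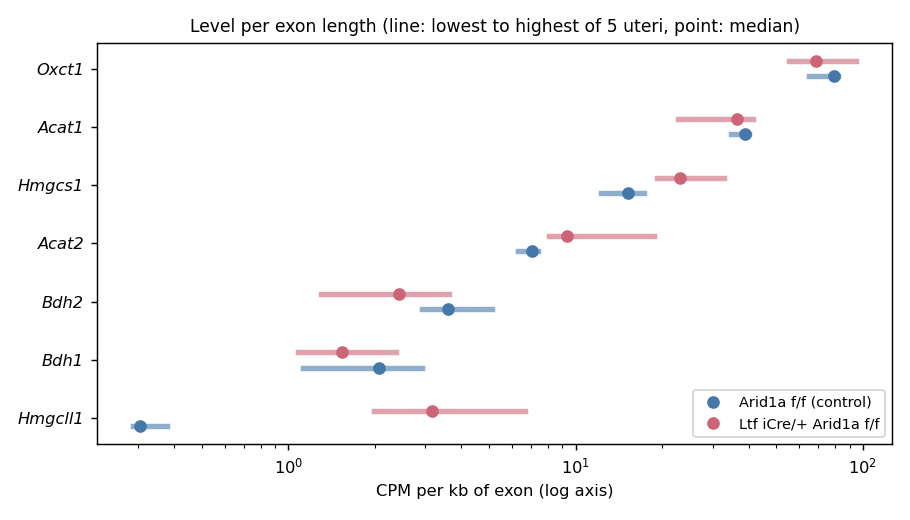
Levels of the members and of related genes in CPM per kb of exon (log axis), with a line from the lowest to the highest and a point at the median of the 5 control and of the 5 knockout uteri. *Oxct1* and *Acat1* have the highest levels in both genotypes, and *Hmgcll1* moves from 0.288 to 0.377 in controls to between 1.98 and 6.65.

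*Hmgcll1* had 2.06, 1.66, 1.57, 1.83 and 1.58 CPM in control replicates 1 to 5. In knockout replicates 1 to 5 it had 36.3, 13.9, 10.8, 17.2 and 23.8 CPM. All 5 knockout uteri lay above every control, with replicate 1 the highest and replicate 3 the lowest. The means were 1.74 ± 0.207 CPM (SD, n = 5) and 20.4 ± 10.1 CPM (SD, n = 5), an 11.7-fold ratio. The spread relative to the mean was 11.9% in controls and 49.5% in knockout uteri.
In the fit across all genes *Hmgcll1* had a fitted log2 fold change of 3.55 (SE 0.31, adjusted p = 0.000340), which placed it at rank 8 of 25146 genes by p. These values belong to the comparison by which the gene was chosen and are given as a description. Among the 14591 genes with a mean of at least 100 counts, it had rank 79 by size of rise. No control library held more than 147 counts of *Hmgcll1*, while the largest count in a knockout library was 2312.
*Hmgcll1* was the 1 member of 5 called at an adjusted p under 0.05, and 9.70% of all tested genes were called. It was also the 1 member of 5 whose genotypes did not overlap, against 10.7% of all tested genes (5.53% with the knockout uteri higher and 5.16% with them lower). Without knockout replicates 1 and 5 its log2 fold change was 3.01 (adjusted p = 4.86e-05). On the opposite strand its exons overlap *Gm26903*, which had at most 4 counts in any library.

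**Figure D2:**
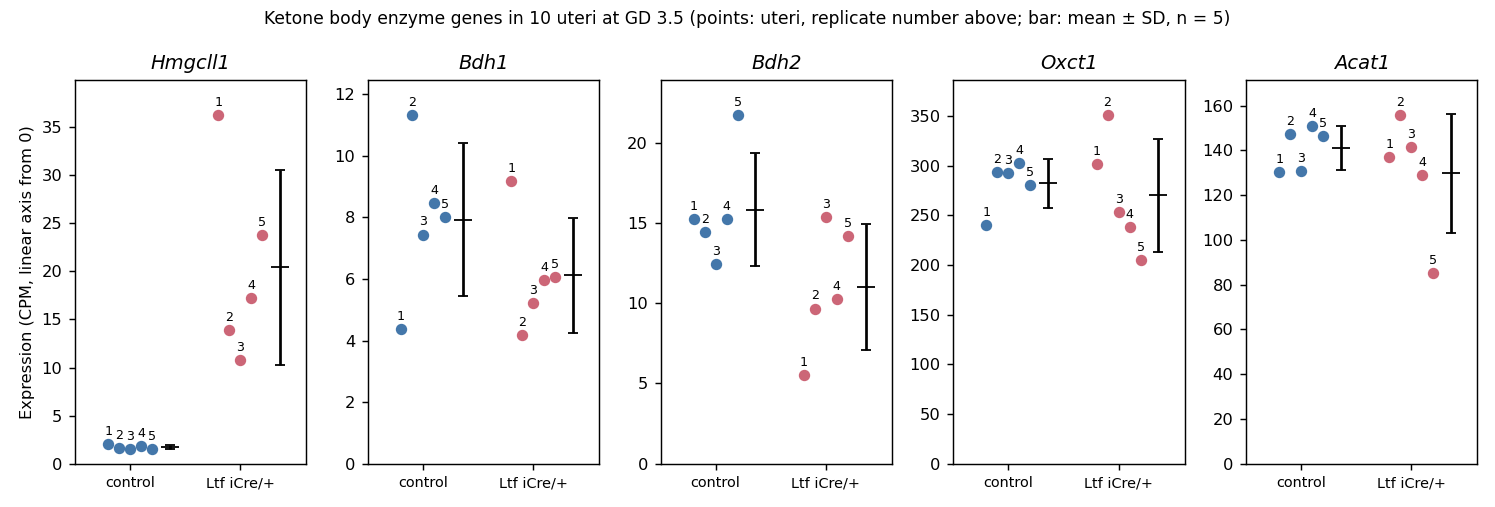
Expression in CPM (linear axes from 0, a different scale in each panel) of the 5 members in each uterus, with the replicate number above each point and bars for the mean ± SD (n = 5). The *Hmgcll1* points of knockout uteri, 10.8 to 36.3 CPM, lie above all controls, while the genotypes overlap for *Bdh1*, *Bdh2*, *Oxct1* and *Acat1*.

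The *Hmgcll1* level was set beside that of the 12 epithelial markers in each uterus, since these markers were higher in knockout uteri. The summed epithelial level was 1.64 times as high in knockout uteri as in controls by the means. Per 1000 CPM of epithelial markers, controls held 1.71, 1.35, 1.57, 1.38 and 1.43 CPM of *Hmgcll1*. The knockout uteri held 12.6, 8.63, 7.77, 10.1 and 11.6 CPM on the same scale. The genotypes did not overlap by this ratio, and its mean was 6.81 times as high in knockout uteri. *Hmgcll1* was chosen with its 11.7-fold difference known, so this ratio is a description and tests nothing. The 12 markers themselves had log2 fold changes of -0.30 to 1.90, and whether *Hmgcll1* is expressed in the epithelium was not tested. Among the 5 knockout uteri the order from lowest to highest was replicates 3, 2, 4, 5 and 1 both for *Hmgcll1* and for the epithelial sum. This is a description of 5 libraries in which both measures come from the same RNA.

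**Figure D3:**
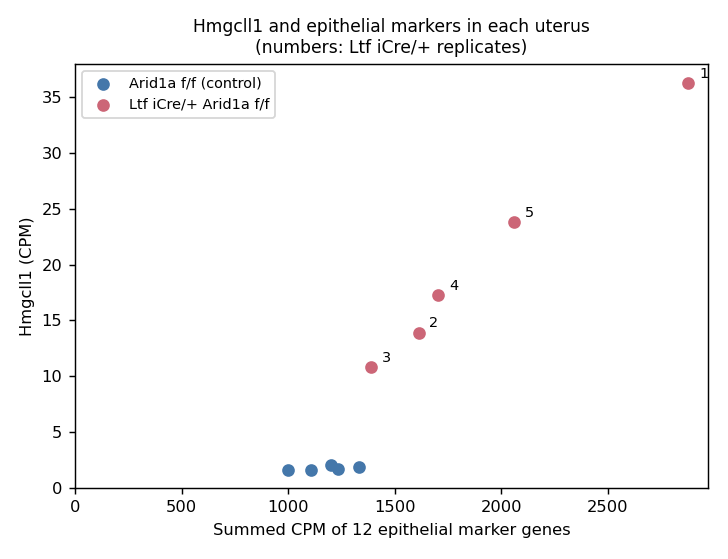
*Hmgcll1* (CPM, vertical axis) against the summed CPM of 12 epithelial marker genes (horizontal axis) in each uterus, with replicate numbers beside the knockout points. Controls sit at 1.57 to 2.06 CPM of *Hmgcll1* with epithelial sums of 996 to 1331 CPM, and knockout uteri at 10.8 to 36.3 CPM with sums of 1390 to 2876 CPM.

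The genes whose profiles over the 10 uteri were most like that of *Hmgcll1* were sought among 15284 genes with a mean of at least 1 CPM, by the root mean square difference of centred log2 CPM. The closest was *Avil*, which codes for the actin-binding protein advillin, at a difference of 0.33. *Tmem54*, a transmembrane protein gene, followed at 0.34 and *Tmie*, known for its role in inner ear hair cells, at 0.39.
*Avil* ranged from 0.948 to 2.66 CPM in controls and from 7.06 to 28.7 CPM in knockout uteri. *Tmem54* ranged from 0.642 to 1.23 CPM and from 8.26 to 26.9 CPM, and *Tmie* from 0.904 to 2.67 CPM and from 7.67 to 18.1 CPM. All 3 were highest in knockout replicate 1 and lowest of that genotype in replicate 3, as *Hmgcll1* was. They were selected for their likeness to *Hmgcll1* over these same uteri, which favours such a shared order. With z-scores in place of centred log2 CPM the closest genes were *Eps8l2*, *Plekhg6* and *Rnf186*, and 0 of the 3 were shared, so the choice of genes depends on the measure.

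Of the dehydrogenases, *Bdh1* (ENSMUSG00000046598, chr16:31422280-31458901, plus strand) interconverts acetoacetate and beta-hydroxybutyrate in mitochondria. It had 4.36, 11.3, 7.44, 8.48 and 8.01 CPM in controls and 9.17, 4.19, 5.23, 5.96 and 6.05 CPM in knockout uteri. The genotypes overlapped, with control replicate 1 among the lowest values and knockout replicate 1 among the highest. The means were 7.93 ± 2.49 CPM (SD, n = 5) and 6.12 ± 1.86 CPM (SD, n = 5), and the log2 fold change was -0.37 (SE 0.26, adjusted p = 0.413).
*Bdh2* (ENSMUSG00000028167, chr3:135281221-135304426, plus strand) had 15.3, 14.4, 12.4, 15.2 and 21.7 CPM in controls. In knockout uteri it had 5.54, 9.67, 15.4, 10.3 and 14.2 CPM. Replicates 1, 2 and 4 of knockout lay below every control, while replicates 3 and 5 lay among them. The means were 15.8 ± 3.50 CPM (SD, n = 5) and 11.0 ± 3.92 CPM (SD, n = 5), and the log2 fold change of -0.52 (SE 0.25, adjusted p = 0.215) did not pass the threshold.

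*Oxct1*, the enzyme that moves CoA from succinyl-CoA to acetoacetate, had 240, 293, 293, 303 and 281 CPM in controls and 301, 351, 253, 239 and 205 CPM in knockout uteri. Knockout replicate 2 lay above all controls and replicates 4 and 5 below them. The means of 282 ± 24.6 CPM (SD, n = 5) and 270 ± 57.1 CPM (SD, n = 5) differed by a log2 fold change of -0.06 (SE 0.14, adjusted p = 0.821). Without knockout replicate 5 the log2 fold change was 0.02, so no direction can be given. The opposite strand holds *BC037032*, whose exons overlap those of *Oxct1* and which had 69 to 166 counts per library, against at least 14167 counts of *Oxct1*.
*Acat1* (ENSMUSG00000032047, chr9:53580522-53610382, minus strand), the mitochondrial acetoacetyl-CoA thiolase, had 130, 147, 131, 151 and 146 CPM in controls. In knockout uteri it had 137, 156, 141, 129 and 85.3 CPM. Replicates 1 and 3 of knockout lay within the control range, replicate 2 above it and replicates 4 and 5 below it. The means were 141 ± 9.84 CPM (SD, n = 5) and 130 ± 26.7 CPM (SD, n = 5), with a log2 fold change of -0.12 (SE 0.14, adjusted p = 0.640). Without knockout replicates 1 and 5 the value was 0.01.
For *Oxct1* and *Acat1* the spread among knockout uteri was larger than the difference of the means, and the same held for *Bdh1*.

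The other genes of ketone body synthesis, use and transport were taken from a list of 12, of which 11 could be tested and *Ffar3* had 0 counts in every library. There were 9 with a higher and 2 with a lower fitted value in knockout uteri, and 2 were called higher. The median log2 fold change was 0.31, against 0.03 over all tested genes, of which 5.19% were called higher and 4.51% lower. Without knockout replicates 1 and 5 the median was 0.14 and 3 genes were called, and without any single control 1 was called.

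Among the enzymes of use, *Acat2*, the cytosolic thiolase, had 16.0 to 18.8 CPM in controls and 47.6, 23.7, 20.6, 22.8 and 27.0 CPM in knockout uteri. The genotypes did not overlap, but the log2 fold change of 0.69 (SE 0.20) had an adjusted p of 0.0569, and without knockout replicate 1, the highest, it was 0.41 with an adjusted p of 0.0336. Without knockout replicate 3 the adjusted p was 0.0388, and it was 0.0173 with DESeq2 and 0.0498 with the filterByExpr filter on low counts. Its neighbour in sequence, *Acat3*, had a log2 fold change of -0.47 (adjusted p = 0.370), and it overlaps the strongly expressed *Tcp1* on the opposite strand, so its counts are uncertain. *Aacs*, which activates acetoacetate in the cytosol, had a value of 0.31 (SE 0.13, adjusted p = 0.160). The testis-type paralogs *Oxct2a* and *Oxct2b* had at most 5 counts in any library, so no difference is read from their fold changes. Both are nevertheless included in the counts and the median of the list.

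Among the carriers, *Slc16a6*, a monocarboxylate transporter that exports ketone bodies from the liver, rose. It had 17.6, 19.4, 18.6, 24.9 and 18.1 CPM in controls and 35.4, 29.5, 29.7, 33.2 and 41.6 CPM in knockout uteri. All 5 lay above every control, at means of 19.7 ± 2.94 CPM (SD, n = 5) and 33.9 ± 4.99 CPM (SD, n = 5). The log2 fold change was 0.78 (SE 0.13, adjusted p = 0.00493). A two-sided exact permutation test gave p = 0.00794, which 5 uteri against 5 cannot go below. Knockout uteri lay above all controls for 5.53% of all tested genes. Since the list was chosen with earlier results of these data known, this p is a description. Its exons overlap *Amz2* and *Arsg* on the opposite strand, and whether reads were counted by strand is not given in the sources used here, but *Amz2* (log2 fold change -0.06) and *Arsg* (-0.11) were not called.
*Slc16a3*, a carrier best known for lactate export, had 3.40 to 4.42 CPM in controls and 6.48, 8.25, 7.26, 7.22 and 42.2 CPM in knockout uteri. Its log2 fold change of 1.82 (SE 0.51, adjusted p = 0.0462) was 0.86 without knockout replicate 5 (adjusted p = 0.00680). The call was lost without any single control, at adjusted p values of 0.0844 to 0.101.
*Slc16a1*, a carrier of lactate and ketone bodies, had 40.0 to 56.2 CPM in controls and 141, 64.6, 46.5, 41.0 and 70.6 CPM in knockout uteri, and its value of 0.66 (SE 0.29, adjusted p = 0.169) did not pass. The value was 0.27 without knockout replicate 1 (adjusted p = 0.350) and 0.14 without replicates 1 and 5 (adjusted p = 0.630). *Slc16a7* (0.29, adjusted p = 0.581) and *Bsg*, the chaperone of these carriers (0.07, adjusted p = 0.656), were not called either.
*Hcar2*, the receptor for beta-hydroxybutyrate on myeloid and fat cells, had 0.0940 to 0.359 CPM in controls, 11.7 CPM in knockout replicate 5 and 0.0507 to 0.784 CPM in the other 4. Its value of 3.89 (adjusted p = 0.0811) was 1.00 without replicate 5 (adjusted p = 0.412), and its adjusted p was 0.0470 without knockout replicate 2. Knockout replicate 5 also held the neutrophil marker sum of 882 CPM and the macrophage marker sum of 892 CPM, against at most 438 CPM of macrophage markers in controls, and their part in the *Slc16a3* and *Hcar2* values was not tested.

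**Figure D4:**
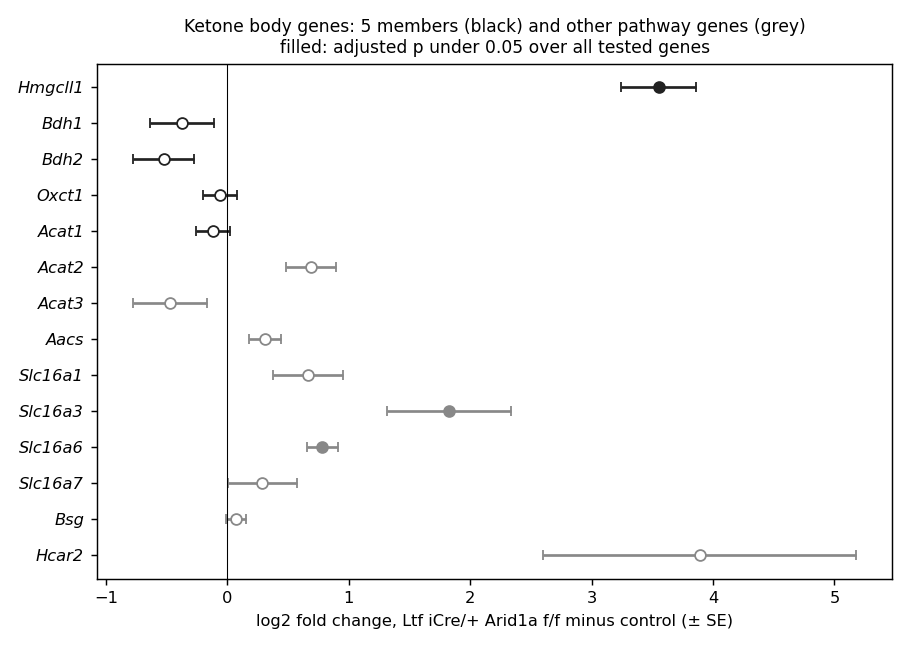
Log2 fold changes (knockout over control, error bars are standard errors of the edgeR fit) of the members and the other ketone body genes, without *Oxct2a* and *Oxct2b*. *Hmgcll1* at 3.55 and *Slc16a6* at 0.78 lie above 0, while *Oxct1* at -0.06 and *Acat1* at -0.12 lie near 0.

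Pathways that meet the members at acetyl-CoA or HMG-CoA were described by lists. Of 20 genes of mitochondrial fatty acid oxidation, the source of acetyl-CoA for ketone bodies, 1 was called lower and 0 higher (median log2 fold change -0.12), a share near the 4.51% of all tested genes called lower. That gene was *Cpt2*, the inner membrane carnitine palmitoyltransferase, at 36.2 ± 4.20 CPM (SD, n = 5) in controls against 25.1 ± 3.10 CPM (SD, n = 5) in knockout uteri (log2 fold change -0.53, SE 0.11, adjusted p = 0.0154).
Of 12 genes of leucine and isoleucine breakdown, which leads to HMG-CoA and to ACAT1, 3 were called lower and 0 higher (median -0.15). Without knockout replicates 1 and 5 the median was 0.0168 and 3 genes in either direction were called, not the same 3. *Bckdha*, a subunit of the branched-chain ketoacid dehydrogenase, fell from 50.8 ± 5.89 to 36.4 ± 2.97 CPM (SD, n = 5 each, log2 fold change -0.48, adjusted p = 0.0119). *Dbt*, the transacylase of the same complex, fell with a log2 fold change of -0.45 (adjusted p = 0.0358) and *Acadsb*, a branched-chain acyl-CoA dehydrogenase, of -0.38 (adjusted p = 0.0248). The *Dbt* call was lost without any single control, at 0.0631 to 0.0739, and without knockout replicate 1 (0.0633). The *Acadsb* call was lost without control replicates 2 or 4 or knockout replicate 4, at 0.0513 to 0.0570. It was also lost without knockout replicates 1 and 5 together (adjusted p = 0.0609).

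In the cytosol, where HMGCLL1 and the cholesterol pathway share HMG-CoA, 4 of the 5 mevalonate genes examined were called higher and 0 lower (median 0.82). Of all tested genes 5.19% were called higher and 4.51% lower. The called mevalonate genes were the synthase *Hmgcs1* (log2 fold change 0.77, adjusted p = 0.0151), the kinase *Pmvk* (0.82, adjusted p = 0.0203), the decarboxylase *Mvd* (1.07, adjusted p = 0.0347) and the isomerase *Idi1* (1.43, adjusted p = 0.00802). Without knockout replicates 1 and 5 the median was 0.50 and 3 were called, and 2 were called without control replicate 2, 3 or 4. The *Mvd* call was lost without any single control and without knockout replicate 1 or 5, and the *Pmvk* call without control replicate 2, 3 or 4.
Of 21 genes of the citrate cycle and respiratory chain, which stand for mitochondrial content, 2 were called higher and 0 lower (median 0.06), against 5.19% of all tested genes called higher. The 2 genes were *Idh3a*, a subunit of isocitrate dehydrogenase (0.60, adjusted p = 0.0430), and *Cox5a*, a subunit of cytochrome c oxidase (0.51, adjusted p = 0.0339), and both calls were lost without any single control. Of 11 tested regulators of ketone body enzymes 2 were called lower and 0 higher (median -0.11), against 4.51% of all tested genes called lower. *Foxa2*, a forkhead factor of endometrial glands and liver, had 13.6, 13.7, 11.2, 13.8 and 10.6 CPM in controls and 4.48, 4.55, 5.87, 8.58 and 5.15 CPM in knockout uteri, with no overlap (log2 fold change -1.13, SE 0.19, adjusted p = 0.00570). *Nr1h4*, the bile acid receptor gene, was called lower at -1.21 (adjusted p = 0.0482) and kept that call in 4 of 16 alternative fits. Its counts were low, at most 21 in any control and at most 8 in any knockout library.
BDH2 has also been described in the making of a mammalian siderophore that lipocalin 2 binds. The lipocalin 2 gene *Lcn2* had 0.838 to 1.71 CPM in controls and 635, 4.61, 2.35, 32.8 and 1659 CPM in knockout uteri. Its log2 fold change was 8.60 (adjusted p = 0.0139), and 3.46 without knockout replicates 1 and 5. With the replicate number as a block the call was lost (adjusted p = 0.155). The neutrophil marker sum was 882 CPM in knockout replicate 5 and 16.0 CPM in knockout replicate 1, and its part in the *Lcn2* values was not tested. The lipocalin receptor gene *Slc22a17* had a value of -0.06 (adjusted p = 0.817).

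**Figure D5:**
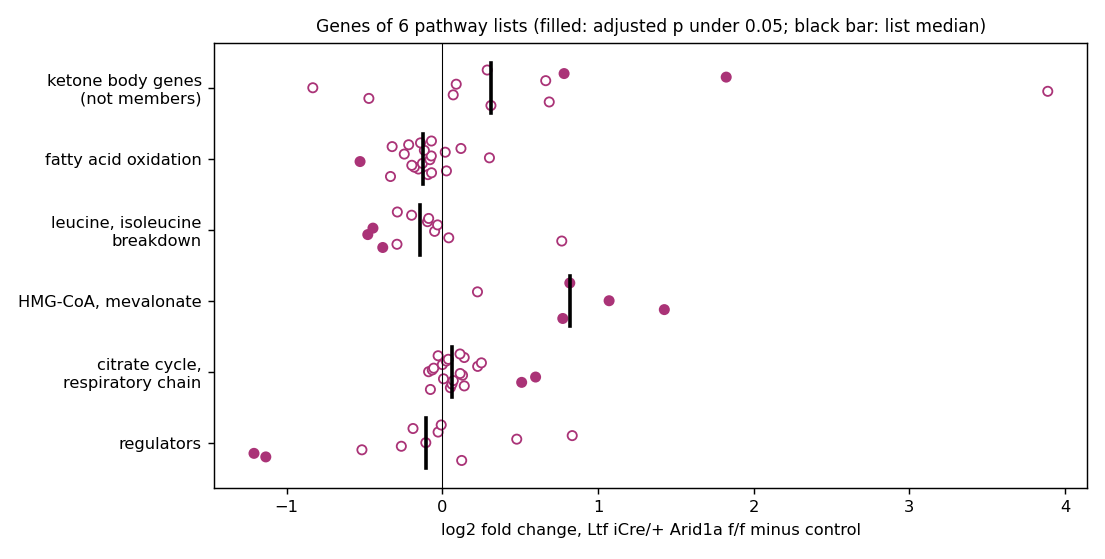
Log2 fold changes (knockout over control) of the tested genes of each pathway list, with a point per gene (filled where called) and a bar at the median of each list. Genes of the cytosolic HMG-CoA and mevalonate list lie above 0 with a median of 0.82, while the medians of fatty acid oxidation (-0.12) and of leucine and isoleucine breakdown (-0.15) lie below 0, the latter at 0.0168 without knockout replicates 1 and 5.

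Markers of other tissues were checked because ketone body enzymes are typical of liver and fat. The 5 tested liver markers summed to between 1.77 and 5.54 CPM in controls and 0.145 and 1.23 CPM in knockout uteri, and 1 of them was called lower. Most of this sum was *Ttr*, which is also a gland marker (1.13 to 4.94 CPM in controls and at most 1.05 CPM in knockout uteri), and *Alb*, a defining liver marker, was at most 0.392 CPM in any uterus. Adipocyte markers summed to between 59.4 and 76.4 CPM in controls and 55.3 and 73.6 CPM in knockout uteri, where 1 of 8 was called lower (*Pck1*). Most of this sum was *Lipe* and *Pnpla2*, while 6 of the 8 had a higher fitted value and the median log2 fold change was 2.73. *Adipoq*, a defining fat marker, was at most 0.0142 CPM in controls and stood at 0.608 and 0.670 CPM in knockout replicates 2 and 3, where *Cfd* was at 1.37 and 1.88 CPM against at most 0.195 CPM in controls. Oviduct and ovary markers summed to between 22.2 and 44.6 CPM in controls and 11.0 and 16.9 CPM in knockout uteri, with 1 of 6 called lower. Of 10 gland markers 9 had a lower fitted value, with a median log2 fold change of -1.57, 5 did not overlap between the genotypes (against 5.16% of all tested genes on the lower side) and 2 were called lower (*Foxa2* and *Wfdc3*). Their summed level, most of it *Prom1* and *Sox17*, was 359 to 475 CPM in controls and 352 to 616 CPM in knockout uteri. Of 9 neutrophil markers 2 were called higher, of 10 stromal markers 1 was called lower (summed level 12182 to 17868 CPM in controls and 10586 to 17443 CPM in knockout uteri), and of 10 myometrial markers 1 was called lower, with summed myometrial levels of 7477 to 12624 CPM in controls and 3883 to 10123 CPM in knockout uteri. Of all tested genes 4.51% were called lower and 5.19% higher. These lists are too short to set a single call against those shares. All 5 tested liver markers (median log2 fold change -1.26) and all 6 oviduct and ovary markers (median -1.31) had lower fitted values. The summed levels of both these lists did not overlap between the genotypes. The part of all the tissues and cell types checked here in the members' values was not tested.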

How the data were processed

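RNA of 10 whole uteri was sequenced as paired-end mRNA libraries with 50 bp reads. Per the labels, the authors used cutadapt 1.18, Trim Galore 0.6.4, FastQC 0.11.9 and STAR 2.7.3a with GRCm38, and the authors deposited raw read counts per gene without normalization. Neither the annotation release nor how the counting treated strand is given in the sources used here. STAR counts uniquely mapped reads, so near-identical paralogs may lose reads.

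Symbols, coordinates and exon lengths came from GENCODE (45143 of 45706 identifiers found). Genes whose mean count reached at least 1 were tested with edgeR 4.0.16 in R 4.3.3 (TMM, quasi-likelihood test, genotype only, Benjamini-Hochberg adjustment over all 25146 genes, threshold 0.05). All adjusted p values in the text are from this test unless another tool is named. DESeq2 1.42.0 was an alternative. Procedures were tested on simulated data. The members and the gene lists were chosen with earlier results of these data known. Named genes were the members, *Arid1a*, *Ltf*, all detected ketone body genes, up to 5 called genes of each other list and the 3 genes most like each called member. Other genes (overlapping genes, neighbours, *Slc22a17* and single cell type markers) were named after their values were seen. Some genes of the lists are not reported here and were left out of the counts and medians of their lists.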

Additional observations from a re-analysis of the deposited data

Results flagged for a closer look

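A single uterus stood far from the other 4 of its genotype in 7 of 62 sets of 5 values tested by Dixon's criterion, and chance alone flags about 1 in 20 such sets. None of the 5 members was among them. *Acat2* was at 47.6 CPM in knockout replicate 1, against 20.6 to 27.0 CPM in the others. *Slc16a3* was at 42.2 CPM in knockout replicate 5, against 6.48 to 8.25 CPM. *Slc16a6* was at 24.9 CPM in control replicate 4, against 17.6 to 19.4 CPM. *Hcar2* was at 0.359 CPM in control replicate 5, against 0.0940 to 0.156 CPM, and at 11.7 CPM in knockout replicate 5, against 0.0507 to 0.784 CPM. *Ltf*, the gene whose locus carries Cre, was at 11.7 CPM in control replicate 1, against 2.22 to 3.76 CPM, and at 2831 CPM in knockout replicate 5, against 23.6 to 383 CPM.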

How the results depend on the processing

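*Hmgcll1* passed the threshold in 17 of 17 alternative fits, with log2 fold changes of 3.01 to 3.71, and *Bdh1*, *Bdh2*, *Oxct1* and *Acat1* in 0 of 17. These fits reuse the uteri whose values were known when the members were chosen, so the counts are a description. Over all genes DESeq2 called 4103 (2131 higher, 1972 lower) against 2438. The deviations of same-numbered uteri were little correlated (correlations of -0.03 to 0.08). Low correlations cannot show whether the uteri were paired, for example as littermates, so no conclusion on pairing is drawn. With the replicate number as a block 1704 genes were called, 845 of them higher, the call of *Slc16a3* was lost (adjusted p = 0.127), and the lists held 1 called ketone body gene, 1 mevalonate gene, 0 citrate cycle and respiratory chain genes, 1 regulator and 0 siderophore genes (median 2.68). Without knockout replicates 1 and 5 *Acat1* turned to 0.00986, *Slc16a7* to -0.14 and *Oxct2b* to -0.00745, and the medians were 0.14 for ketone body genes, 0.50 for mevalonate genes, 0.02 for leucine and isoleucine breakdown and 1.78 for the siderophore genes, with 2 fatty acid oxidation genes, 1 citrate cycle and respiratory chain gene and 1 regulator called. The ketone body median was 0.66 with filterByExpr, a filter that left out *Oxct2a* and *Oxct2b*. Regulators called were 4 with DESeq2 and 1 each with no filter and with filterByExpr. With the longest transcript as length, mean control levels per kb were 0.465 for *Hmgcll1*, 5.05 for *Bdh2* and 41.4 for *Acat1* against means of 0.319, 3.72 and 37.5 with all exons, and z-scores shared 0 of the 3 genes most like *Hmgcll1*.

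Without 1 uterus at a time 1204 to 2381 genes were called (1204 without control replicate 2), 594 to 1296 higher and 610 to 1085 lower. *Oxct1* moved between -0.18 and 0.0207 and *Oxct2b* between -0.36 and 0.55. Called genes were 1 to 3 for ketone bodies (median 0.24 to 0.55), 1 to 4 for leucine and isoleucine breakdown, 2 to 4 for mevalonate, 0 to 2 for the citrate cycle and respiratory chain and 1 to 2 for regulators (median -0.22 to -0.0220). DESeq2 gave no adjusted p for *Oxct2a*, *Oxct2b*, *Slc16a3* and *Hcar2*. The causes of these changes were not tested, apart from the smaller number of uteri or genes in some fits. Depth limits *Oxct2a* and *Oxct2b*, at no more than 5 counts.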

Other observations

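Genes around the members were counted against the 9.70% of all tested genes that were called. Within 1 Mb of *Hmgcll1* 22 genes were tested, of which 1 was called higher and 2 lower, and the nearest protein-coding gene before it, *Bmp5*, lay 114.5 kb away and had 2.32 ± 1.05 CPM (SD, n = 5) in controls against 5.52 ± 2.87 CPM (SD, n = 5) in knockout uteri (log2 fold change 1.25, SE 0.42, adjusted p = 0.0830). *Hmgcll1* and *Acat1* share chromosome 9 with *Ltf*, at distances of 34.9 and 57.4 Mb. Around *Acat1* 21 genes were tested, with 2 called higher and 1 lower, and around *Bdh1* 35, with 2 higher and 3 lower. The gene before *Bdh1*, *Apod*, which codes for the lipid carrier apolipoprotein D, fell from 9.55 ± 2.50 to 3.49 ± 1.74 CPM (SD, n = 5 each, log2 fold change -1.45, SE 0.34, adjusted p = 0.0238). Around *Bdh2* edgeR called 0 of 19 genes (1 called by DESeq2), and around *Oxct1* it called 0 of 14 (0 by DESeq2). Around *Hmgcll1* DESeq2 called 5 of the 22. The same count was 5 of 35 around *Bdh1* and 4 of 21 around *Acat1*. Of all 25146 genes DESeq2 called 4103.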
